A study of Mus musculus with 6 samples.

Results

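The 37 genes described here encode proteins by which cells hold on to each other, to their matrix or across synapses. They comprise 6 cadherins, 7 catenins and junction plaque proteins, 3 nectins, 8 integrin chains, 2 focal adhesion adaptors, 6 immunoglobulin-type adhesion molecules and EpCAM, and 5 neurexins and neuroligins. They were taken by symbol, on the condition that a gene held at least 10 counts summed over the 6 libraries. All 37 met that condition out of 56980 rows of the count table, and all 37 passed the filter on low counts and stood among the 18558 genes tested.

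The RNA came from whole islets of mice at 14 weeks of age. The 3 knockout libraries carried floxed Ssbp3 alleles (SSBP3F/F) with MIP-CreER, a transgene in which insulin gene promoter sequence drives a Cre recombinase that tamoxifen switches on. The 3 control libraries came from littermates with SSBP3F/F alone, so every animal had floxed alleles, and effects of the transgene and of the knockout cannot be told apart. The promoter targets beta cells, whereas the libraries also hold the other cells of an islet. In such bulk RNA, fewer cells of a type and less RNA per cell cannot be told apart. The labels name neither pools nor single animals, so p-values rest on the spread among these libraries, which may in part be technical.

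Classical cadherins bind their like on the neighbouring cell, and catenins tie their tails to actin. Desmosomal cadherins are tied to keratin through plakoglobin, plakophilins and desmoplakin, and nectins reach actin through afadin. Integrins pair an alpha with a beta chain to bind laminins, fibronectin or vitronectin, and talin and vinculin couple them to the cytoskeleton. In islets, E-cadherin joins beta cells, NCAM takes part in the sorting of endocrine cell types, and integrins meet the laminins that islet capillaries lay down. Neurexins and neuroligins bind each other across synapses and are also made by beta cells.

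Library totals ran from 14907641 to 93841878 counts among knockouts and from 17587055 to 225428920 among controls, with 1 shallow library (replicate 1) in each group. Ssbp3 itself had 52.3, 58.1 and 57.1 CPM (counts scaled to library size with TMM factors), counted over all its exons, in knockout libraries, against 65.8, 81.3 and 74.2 CPM in controls, with no overlap and an adjusted p of 0.0581. Beta-cell markers, with insulin foremost, summed to 141080 to 158580 CPM in knockouts and 187250 to 241880 CPM in controls, as the islet label calls for. Delta and PP-cell markers were also lower in every knockout library (4161 to 5775, against 6111 to 9931 CPM), as were duct-cell markers (1047 to 1587, against 1802 to 2341 CPM). Spp1 gave 349.8 to 823 CPM of that duct sum in knockouts and 1158 to 1481 CPM in controls. The endothelial sum was higher in every knockout library, at 263 to 329 CPM against 226 to 261 CPM, and the alpha, acinar, stromal, immune and Schwann-cell sums overlapped between groups. A two-sided exact permutation test gave p = 0.1 for each of the 4 sums without overlap, the smallest that 3 against 3 allows, and 0.225 after Benjamini-Hochberg adjustment over 9 lists. The part of these shifts in the results that follow was not tested, except where stated.

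Of the 37 genes, 7 rose in knockout islets: Itga6, Afdn, Dsp, Cdh1, Itga3, Ncam1 and Nectin3. None fell. The test was edgeR's quasi-likelihood test, and a gene is called where its Benjamini-Hochberg adjusted p over all 18558 genes (adjusted p from here on) is under 0.05. The 7 make up 18.9% of the 37, against 3.72% of all genes tested that were called higher and 3.35% that were called lower (7.07% in all). The 37 were chosen with earlier results of these data known, so these shares describe the list and do not test it. At an unadjusted p under 0.05 there were 15 genes higher and 2 lower in knockouts, 17 of 37, where the share over all genes was 21.6% for both directions together. Log2 fold changes, knockout over control throughout, were above 0 for 29 of the 37 with a median of 0.28, beside a median of -0.00 over all genes tested.

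Knockout and control libraries did not overlap for 15 genes that were higher in every knockout library, against 14.0% of all genes tested, and for 3 that were lower, against 14.1%. Those 18 genes are 48.6% of the 37, where 28.0% of all genes had no overlap. Together the 37 genes took 0.225%, 0.229% and 0.270% of the counts of knockout libraries 1, 2 and 3, and 0.181%, 0.171% and 0.182% in controls 1, 2 and 3. Knockout 3 was the highest knockout library for 17 of the 37 and knockout 1, the shallow one, the lowest for 20. All 7 called genes lay among the 25 with a mean of at least 10 CPM, and at that level 5.78% of all genes were called higher and 5.58% lower. The 6 genes with a mean under 2 CPM (Pcdh7, Pcdh9, Pcdh17, Nrxn3, Nlgn1 and Nlgn3) had standard errors of 0.47 to 0.92 on the log2 scale, against 0.11 to 0.16 for the 7 called genes, so changes of the called genes' size were not detectable in them at this depth.

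**Figure D1:**
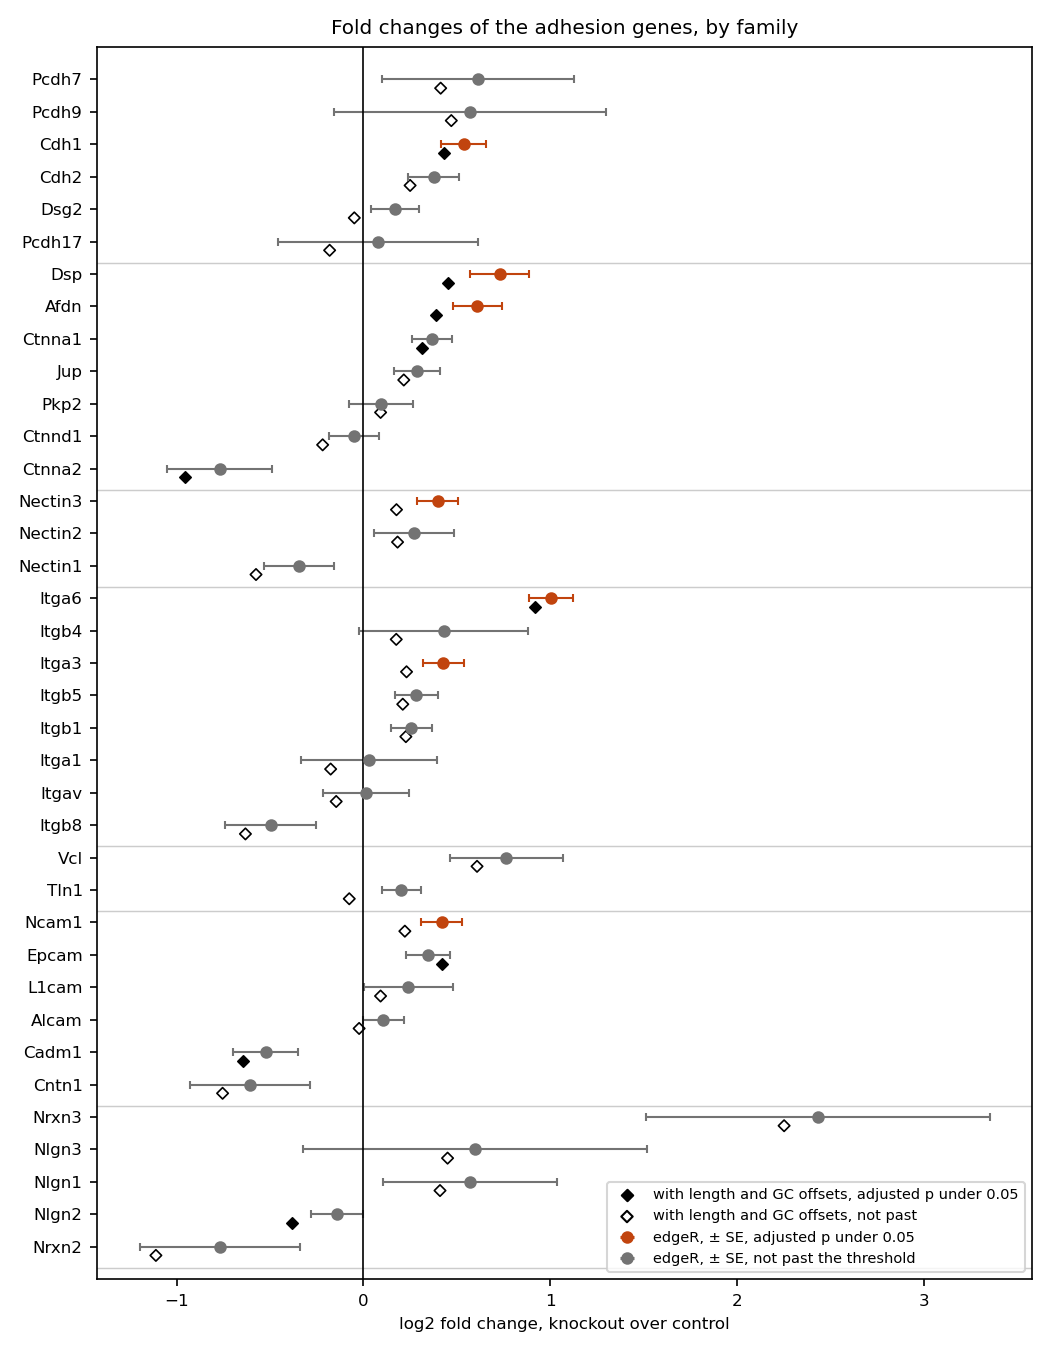
Log2 fold change (knockout over control) of the 37 adhesion genes by family, with circles and bars of 1 standard error (orange where called) and diamonds for the fit with length and GC offsets (filled where past the threshold). Most circles lie right of 0, the called genes between 0.40 and 1.01, and no orange circle lies left of 0. Filled diamonds left of 0 mark Ctnna2, Cadm1 and Nlgn2.

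Promoter windows of the called genes are shown because these genes moved in the same direction; RefSeq's table (GRCm38.p6) holds 4 of the 7. Each window runs from 250 bases before to 50 bases after the annotated start, 5′ to 3′ on the gene's strand, with every GGGCGG on either strand (CCGCCC where it lies on the other) in capitals. The windows are chr13:38151044-38151343 (+) for Dsp, chr17:13760291-13760590 (+) for Afdn, chr16:46496918-46497217 (-) for Nectin3 and chr11:95076665-95076964 (-), the more upstream of 2 starts, for Itga3.
Dsp: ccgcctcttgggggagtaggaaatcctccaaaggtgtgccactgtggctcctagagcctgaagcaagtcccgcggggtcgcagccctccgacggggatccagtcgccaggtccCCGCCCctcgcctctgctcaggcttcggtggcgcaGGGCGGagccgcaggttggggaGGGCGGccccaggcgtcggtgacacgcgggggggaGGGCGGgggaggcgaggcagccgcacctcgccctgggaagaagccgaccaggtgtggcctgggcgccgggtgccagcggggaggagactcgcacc
Afdn: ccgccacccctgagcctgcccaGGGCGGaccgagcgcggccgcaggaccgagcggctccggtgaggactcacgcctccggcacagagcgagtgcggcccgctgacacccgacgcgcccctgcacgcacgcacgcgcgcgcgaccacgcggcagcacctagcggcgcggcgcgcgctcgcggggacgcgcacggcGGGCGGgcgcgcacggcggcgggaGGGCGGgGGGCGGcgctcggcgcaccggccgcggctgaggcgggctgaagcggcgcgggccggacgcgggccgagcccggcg
Nectin3: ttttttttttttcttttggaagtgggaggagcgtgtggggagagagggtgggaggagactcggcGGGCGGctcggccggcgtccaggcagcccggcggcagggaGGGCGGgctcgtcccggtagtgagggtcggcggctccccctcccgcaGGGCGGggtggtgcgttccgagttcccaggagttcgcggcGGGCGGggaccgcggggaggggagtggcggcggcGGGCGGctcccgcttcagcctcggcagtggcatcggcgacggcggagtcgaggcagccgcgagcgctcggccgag
Itga3: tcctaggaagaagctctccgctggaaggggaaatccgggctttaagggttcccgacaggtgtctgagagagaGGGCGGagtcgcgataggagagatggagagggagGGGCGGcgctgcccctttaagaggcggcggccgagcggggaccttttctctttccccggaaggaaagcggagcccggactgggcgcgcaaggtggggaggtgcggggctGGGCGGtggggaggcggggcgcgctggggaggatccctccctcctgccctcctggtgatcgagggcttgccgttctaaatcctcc
GGGCGG, the core of the GC box that Sp and Krüppel-like factors can bind, occurred 4 times in Dsp and Afdn, 5 times in Nectin3 and 3 times in Itga3. A match was found in 35.9% of all 32544 promoter windows. The table holds 25 of the 37 genes, and 16 of their 25 windows had a match. These 25 are the most upstream window of each gene, so they are chosen otherwise than the set of all windows. GC content was 73% for Dsp, 83.3% for Afdn, 73.7% for Nectin3 and 66.7% for Itga3, beside a median of 53% over all windows, and GC-rich windows hold more such matches. The E-box letters CANNTG stood in Dsp and Itga3 1 time each, sharing no base with a GGGCGG, and not in Afdn or Nectin3. A CANNTG was found in 14 of the 25 windows and in 72.3% of all. TAAT, the core letters of homeodomain sites, searched on both strands, stood in none of the 4 windows, in 6 of the 25 and in 57.9% of all. A match describes the letters only.

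Among the cadherins, E-cadherin rose and, per length, was the most abundant. Cdh1 (E-cadherin; ENSMUSG00000000303) had 316, 383 and 388 CPM in knockout libraries, against 247, 259 and 243 CPM in control libraries. Every knockout library lay above every control library, with knockout 1 nearest to them. The means were 362 ± 39.9 CPM in knockouts and 249.7 ± 8.24 CPM in controls (SD, n = 3 each), 1.45-fold, a log2 fold change of 0.54 (SE 0.12) with an adjusted p of 0.0200. Per kilobase of exon, Cdh1 stood at 81.8 CPM in knockouts and 56.4 in controls. The Cdh1 call was lost without knockout 2 (adjusted p = 0.0769), control 1 (0.0771) or control 2 (0.0625).

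Cdh2 (N-cadherin), also found in islet endocrine cells, had 92.0, 85.8 and 121 CPM in knockouts, against 75.6, 71.8 and 82.7 CPM in controls. The groups did not overlap, but the gap between knockout 2 and control 3 was small, and the log2 fold change of 0.38 (SE 0.14) had an adjusted p of 0.123. With the summed acinar markers as a covariate, its adjusted p was 0.0288. Per kilobase, Cdh2 was the scarcer of the 2, at 20.1 CPM in knockouts and 15.5 CPM in controls. Cdh1 made up 80.3 ± 2.66% of the pair's summed CPM per kilobase in knockouts and 78.4 ± 1.73% in controls, which overlapped (exact permutation p = 0.5, n = 3 each).

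Dsg2, the desmoglein of simple epithelia, had 31.5, 36.7 and 39.4 CPM in knockouts and 31.6, 33.6 and 30.7 CPM in controls, which overlapped (adjusted p = 0.489). The 3 protocadherins, which mediate weak adhesion mainly described in neurons, were near the floor of these libraries. Pcdh7 had 0.958 to 2.17 CPM in knockouts and 0.532 to 1.35 CPM in controls, Pcdh9 0.379 to 0.517 against 0.189 to 0.452 CPM, and Pcdh17 0.388 to 1.12 against 0.548 to 0.978 CPM. All 3 overlapped between groups, with adjusted p of 0.545 or more.

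**Figure D2:**
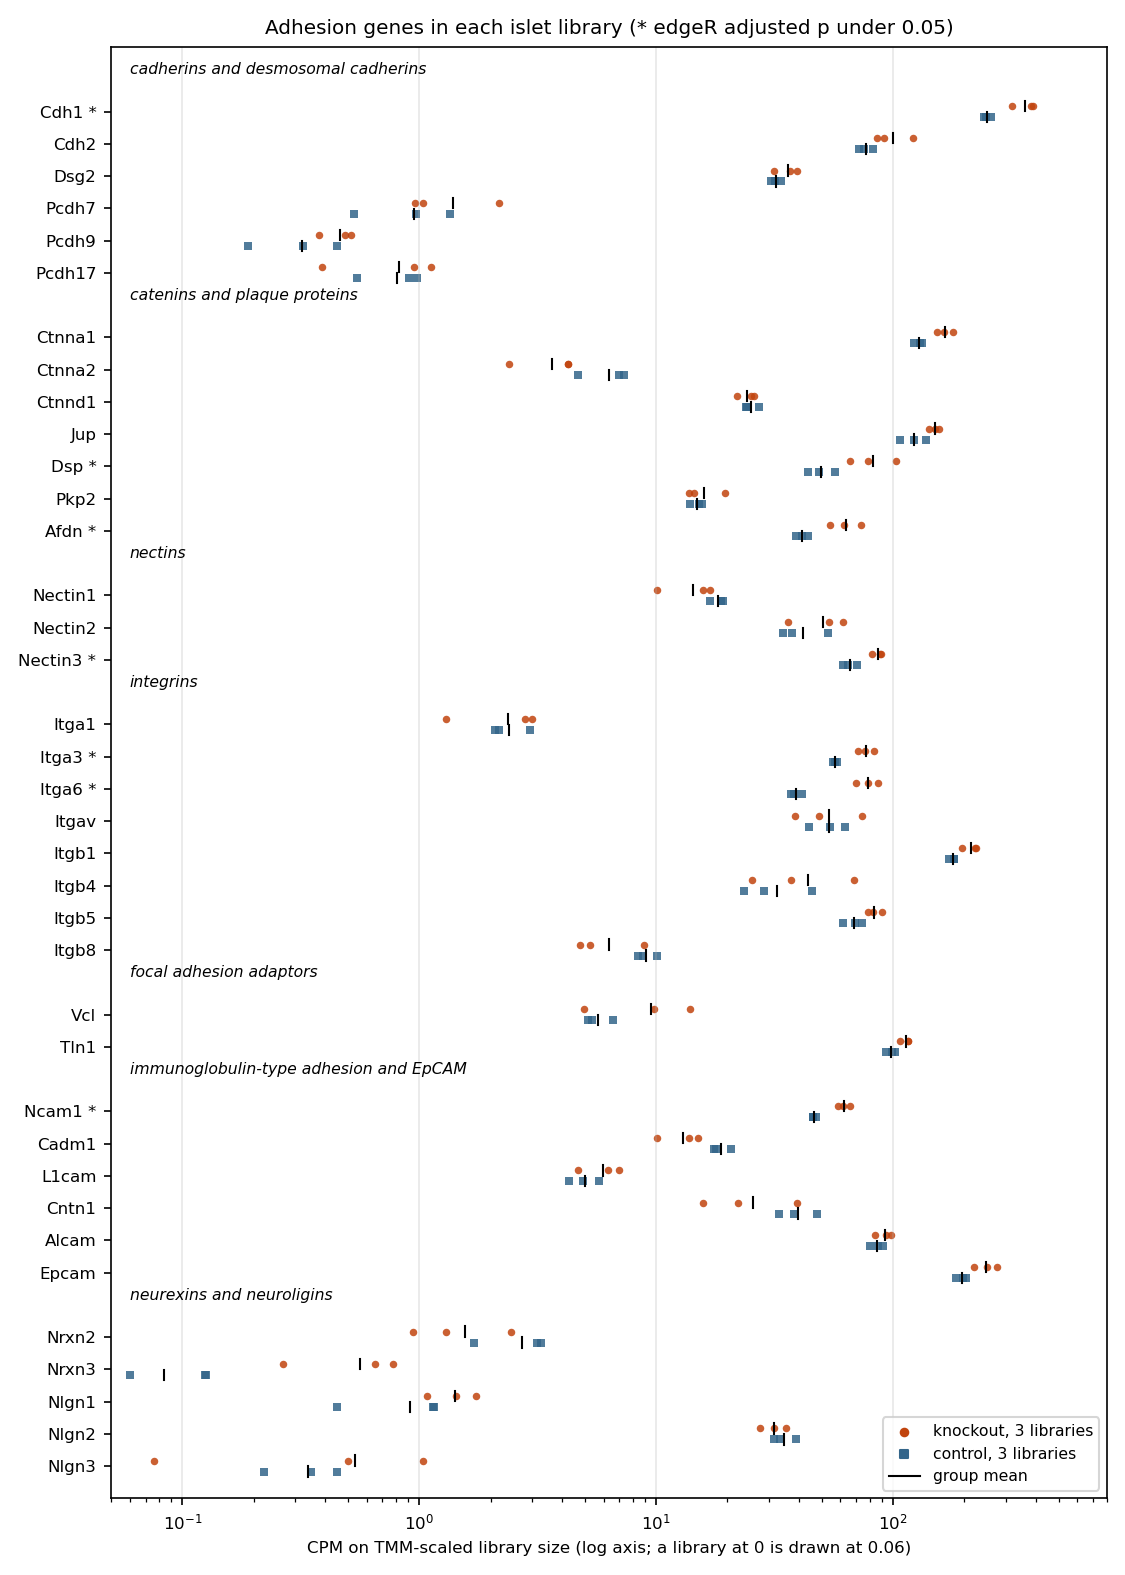
Level in CPM (log axis) of the 37 genes in each of the 3 knockout and 3 control libraries, 1 point per library and a bar at each group mean, by family, with an asterisk for called genes. The knockout points of Itga6, Cdh1, Dsp and Afdn stand clear of the controls, while those of the 3 protocadherins mix with them.

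Desmoplakin and afadin rose, plaque proteins that attach desmosomes to keratin and nectins to actin. Dsp (desmoplakin; ENSMUSG00000054889) had 66.0, 78.3 and 103 CPM in knockouts, against 43.8, 48.5 and 56.7 CPM in controls. Afdn (afadin; ENSMUSG00000068036) had 54.0, 62.2 and 73.3 CPM in knockouts, against 39.1, 41.4 and 43.8 CPM in controls. For both genes knockout 3 was highest, knockout 1 was lowest of the knockouts, and no library crossed between the groups.

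Dsp averaged 82.4 ± 18.8 CPM in knockouts and 49.7 ± 6.54 CPM in controls, 1.66-fold, with a log2 fold change of 0.73 (SE 0.16) and an adjusted p of 0.0169. Its call was lost without control 1 (adjusted p = 0.0909) or control 2 (0.0797). Afdn averaged 63.2 ± 9.68 CPM in knockouts and 41.4 ± 2.35 CPM in controls, 1.53-fold, with a log2 fold change of 0.61 (SE 0.13) and an adjusted p of 0.0154. Its call was likewise lost without control 1 (0.0732) or control 2 (0.0647). Both stayed called with offsets for transcript length and GC content, at smaller log2 fold changes of 0.46 for Dsp (adjusted p = 0.0186) and 0.39 for Afdn (adjusted p = 0.0219).

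Of the 7 catenin and plaque genes among the 37, the 2 with the highest levels per kilobase, Ctnna1 (44.3 CPM in knockouts, 34.3 in controls) and Jup (46.5 CPM in knockouts, 38.1 in controls), were higher in every knockout library without passing the test. Ctnna1 (alpha-E-catenin, the link from beta-catenin to actin) had 154, 178 and 164 CPM in knockouts, against 122.5, 129.6 and 133 CPM in controls, a log2 fold change of 0.37 (SE 0.11) with an adjusted p of 0.0634. It passed the threshold in 4 alternatives: DESeq2 (0.0362), limma-voom (0.0428), the acinar covariate (0.0300) and the length and GC offsets (0.0415). Jup (plakoglobin, shared by adherens junctions and desmosomes) had 142, 157 and 150.3 CPM in knockouts, against 107, 138 and 123 CPM in controls. Its lowest knockout library stood just above control 2, and the adjusted p was 0.186.

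The neural alpha-catenin lay the other way. Ctnna2 had 2.39, 4.23 and 4.24 CPM in knockouts, against 7.34, 4.68 and 6.98 CPM in controls, a log2 fold change of -0.77 (SE 0.28) with an adjusted p of 0.126. All knockout libraries were below all controls, with control 2 the nearest, and with the offsets for length and GC, Ctnna2 was called lower (-0.96, adjusted p = 0.0410). Ctnnd1 (p120-catenin, which holds cadherins at the surface) had 22.0 to 25.8 CPM in knockouts and 23.9 to 27.1 CPM in controls. Pkp2 (plakophilin 2, of desmosomal plaques) had 13.7 to 19.6 CPM in knockouts and 13.9 to 15.6 CPM in controls. Both overlapped, with adjusted p of 0.875 for Ctnnd1 and 0.808 for Pkp2.

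Of the nectins, immunoglobulin-type molecules that begin cell contacts and bind afadin, Nectin3 rose. Nectin3 (ENSMUSG00000022656) had 89.1, 81.9 and 88.0 CPM in knockouts, against 70.7, 61.3 and 64.6 CPM in controls. The groups were well apart, with means of 86.3 ± 3.88 CPM in knockouts and 65.5 ± 4.74 CPM in controls, 1.32-fold. The log2 fold change of 0.40 (SE 0.11) had an adjusted p of 0.0461, the weakest of the 7 calls. It was lost without any single library, with adjusted p of 0.131, 0.0833 and 0.0791 without knockout 1, 2 and 3, and 0.0677, 0.209 and 0.0840 without control 1, 2 and 3. With length and GC offsets its log2 fold change was 0.18 (adjusted p = 0.385), and with upper-quartile factors the adjusted p was 0.0751.

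Nectin1 had 10.1, 16.9 and 15.8 CPM in knockouts, against 19.2, 17.0 and 18.7 CPM in controls. The knockout libraries were all lower, but knockout 2 came within a narrow margin of control 2, and the adjusted p was 0.324. Nectin2 overlapped, with 36.2 to 61.5 CPM in knockouts and 34.3 to 53.0 CPM in controls (adjusted p = 0.514). Nectin3 took 31.1 ± 5.55% of the 3 nectins' summed CPM per kilobase in knockouts and 27.6 ± 4.30% in controls (exact permutation p = 0.4, n = 3 each). Afdn per kilobase came to 33.1 ± 9.52% of that nectin sum in knockouts and 25.1 ± 3.71% in controls (exact permutation p = 0.3, n = 3 each), so neither ratio separated the groups.

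Of the 7 called genes, an integrin had the largest fold change and the smallest adjusted p. Itga6 (integrin alpha 6; ENSMUSG00000027111), a laminin-binding chain that pairs with beta 1 or beta 4, had 69.5, 78.1 and 86.6 CPM in knockouts, against 37.3, 38.1 and 41.2 CPM in controls. Even the lowest knockout library was well above the highest control. The means were 78.1 ± 8.52 CPM in knockouts and 38.9 ± 2.09 CPM in controls, 2.01-fold, with a log2 fold change of 1.01 (SE 0.12) and an adjusted p of 0.000442. Itga6 was called in all 16 alternatives, with log2 fold changes of 0.92 to 1.09 and adjusted p of 6.17e-11 to 0.0356. Per kilobase it stood at 17.9 CPM in knockouts and 8.91 CPM in controls.

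Endothelial cells also make alpha 6. The summed endothelial markers were higher in every knockout library, by 0.29 on the log2 scale, against 1.01 for Itga6, and the part of one in the other was not tested. Of the 8 endothelial markers, only Cdh5 was called, a cadherin that is also in the wider lists below. The median log2 fold change of the 8 was 0.22, and Flt1 lay at -0.02.

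Itga3 (integrin alpha 3; ENSMUSG00000001507), another laminin-binding alpha chain among the 37, had 76.1, 82.9 and 71.2 CPM in knockouts, against 57.1, 58.0 and 55.8 CPM in controls. Controls were tightly grouped and every knockout library was above them. The means were 76.7 ± 5.88 CPM in knockouts and 57.0 ± 1.09 CPM in controls, 1.35-fold, with a log2 fold change of 0.43 (SE 0.11) and an adjusted p of 0.0329. The Itga3 call was kept without knockout 3 but lost without knockout 1 (0.0901) or knockout 2 (0.140) and without control 1 (0.0934), control 2 (0.117) or control 3 (0.0694). It was also lost with upper-quartile factors (0.0562) and with length and GC offsets (0.23, adjusted p = 0.215).

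Itga6 made up 52.4%, 53.2% and 59.4% of the summed Itga3 and Itga6 level per kilobase in knockouts, against 44.0%, 44.2% and 47.1% in controls. The share was thus higher in every knockout library, by 9.91 percentage points on average. The exact permutation p was 0.1 (n = 3 each), the smallest possible, and 0.5 after adjustment over the 5 ratios computed.

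The beta 1 chain, partner of most alpha chains, was the most abundant integrin per kilobase, at 55.9 CPM in knockouts and 46.8 CPM in controls. Itgb1 had 195, 222 and 223 CPM in knockouts, against 181, 181 and 173 CPM in controls, without overlap, but the log2 fold change of 0.26 (SE 0.11) had an adjusted p of 0.196. Itgb5, which pairs with alpha v to bind vitronectin, had 89.5, 78.3 and 82.1 CPM in knockouts, against 61.4, 74.2 and 69.3 CPM in controls (adjusted p = 0.173). Both groups of libraries were separate for each gene, with knockout 2 close to control 2 for Itgb5.

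Itgb4, which pairs with alpha 6 alone and forms hemidesmosomes, had 37.1, 68.5 and 25.4 CPM in knockouts, against 28.6, 45.4 and 23.4 CPM in controls. In both groups library 2 was highest and library 3 lowest, the order that the acinar marker sums had too: 37953, 77791 and 22650 CPM in knockouts, against 37719, 58568 and 28861 CPM in controls. The log2 fold change of Itgb4 was 0.43 (SE 0.45; adjusted p = 0.666), and -0.06 without knockout 2. Fitted with the acinar covariate, Itgb4 stood 0.34 higher on the log2 scale. There the SE was 0.11, and the gene stayed uncalled (adjusted p = 0.0626). Its share of the summed Itgb1 and Itgb4 level per kilobase was 10.7 ± 4.61% in knockouts and 9.69 ± 2.93% in controls (exact permutation p = 0.7, n = 3 each).

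The remaining integrins overlapped. Itgb8, a partner of alpha v that can activate TGF-beta, had 4.79, 5.27 and 8.87 CPM in knockouts, against 10.05, 8.76 and 8.35 CPM in controls (adjusted p = 0.264). Knockout 3 alone reached the control range, and without it Itgb8 was called lower (-0.84, adjusted p = 0.0497). Itgav (alpha v) had 38.4 to 74.3 CPM in knockouts and 44.1 to 62.5 CPM in controls, and Itga1, a collagen-binding chain, had 1.29 to 2.99 CPM in knockouts and 2.09 to 2.94 CPM in controls. Their log2 fold changes were near 0 (0.02 for Itgav, 0.03 for Itga1) and turned negative with upper-quartile factors (-0.04 for Itgav, -0.03 for Itga1).

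Neither focal adhesion adaptor passed the test. Tln1 (talin 1, which activates integrins from inside the cell) had 107, 116 and 116 CPM in knockouts, against 93.1, 99.4 and 102 CPM in controls, without overlap (log2 fold change 0.20, adjusted p = 0.285). With length and GC offsets its log2 fold change was -0.07. Vcl (vinculin, which joins talin and alpha-catenin to actin) had 4.98, 9.76 and 13.9 CPM in knockouts, against 5.36, 5.15 and 6.56 CPM in controls. Knockout 2 and 3 stood above all controls and knockout 1 below them, so the groups overlapped. The log2 fold change of Vcl was 0.77 (SE 0.30; adjusted p = 0.161), and Vcl was called without knockout 1 (1.06, adjusted p = 0.0345) and with no filter on low counts (adjusted p = 0.0162).

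NCAM, an islet endocrine cell adhesion molecule, rose. Ncam1 (ENSMUSG00000039542) had 65.9, 58.5 and 61.6 CPM in knockouts, against 47.1, 45.7 and 46.1 CPM in controls. The controls lay within a narrow band and all knockouts above it, with means of 62.0 ± 3.74 CPM in knockouts and 46.3 ± 0.726 CPM in controls, 1.34-fold. The log2 fold change of 0.42 (SE 0.11) had an adjusted p of 0.0362. The Ncam1 call was lost without any single library, with adjusted p of 0.119, 0.0657 and 0.0546 without knockout 1, 2 and 3, and 0.0902, 0.151 and 0.0715 without control 1, 2 and 3. It was lost too with upper-quartile factors (0.0605) and with length and GC offsets (0.22, adjusted p = 0.263).

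Epcam, an epithelial surface molecule, had 274, 249 and 220.3 CPM in knockouts, against 197.5, 202 and 185 CPM in controls. The groups did not overlap, and the log2 fold change of 0.35 (SE 0.12) had an adjusted p of 0.101. Epcam was called once length and GC offsets were used (0.42, adjusted p = 0.0145). Per kilobase it was the most abundant of the 37 genes, at 120 CPM in knockouts and 94.5 CPM in controls.

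Cadm1, a nectin-like molecule of epithelia and synapses, lay lower. It had 10.1, 13.7 and 14.98 CPM in knockouts, against 17.8, 20.8 and 17.5 CPM in controls, with every knockout library below every control. The log2 fold change of -0.52 (SE 0.17) had an adjusted p of 0.0931, and Cadm1 was called lower once those offsets for length and GC were used (-0.64, adjusted p = 0.0239).

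Cntn1 (contactin 1, a lipid-anchored axonal molecule) had 15.8, 22.2 and 39.2 CPM in knockouts, against 38.3, 32.9 and 47.6 CPM in controls. Knockout 3 lay inside the control range while knockout 1 and 2 lay below it, and the adjusted p was 0.339. Without knockout 3, Cntn1 was called lower (-1.05, adjusted p = 0.00447). Alcam, a partner of CD6 on T cells, had 84.3 to 98.4 CPM in knockouts and 79.99 to 90.7 CPM in controls (adjusted p = 0.639). L1cam, which guides axons, had 4.68 to 6.99 CPM in knockouts and 4.29 to 5.75 CPM in controls (adjusted p = 0.618). Both overlapped.

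None of the 5 neurexins and neuroligins passed the test. Nlgn2, the neuroligin of inhibitory synapses, was the sole one of them above 10 CPM, with 31.4, 27.5 and 35.2 CPM in knockouts, against 31.4, 33.3 and 39.0 CPM in controls. The groups overlapped (log2 fold change -0.14, adjusted p = 0.620), and Nlgn2 was called lower once length and GC offsets were used (-0.38, adjusted p = 0.0447). Nrxn2, a presynaptic neurexin, had 0.939 to 2.43 CPM in knockouts and 1.70 to 3.27 CPM in controls (adjusted p = 0.334). Nlgn1, found at excitatory synapses, had 1.07 to 1.74 CPM in knockouts and 0.452 to 1.15 CPM in controls (adjusted p = 0.534). Nlgn3, found at both kinds of synapse, had 0.0758 to 1.03 CPM in knockouts and 0.221 to 0.452 CPM in controls (adjusted p = 0.770), and its log2 fold change of 0.60 was -0.20 without knockout 1.

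Nrxn3 was higher in every knockout library, with 0.776, 0.649 and 0.265 CPM against 0, 0.124 and 0.126 CPM in controls. These levels rest on 12, 52 and 28 counts in knockouts and on 0, 10 and 28 counts in controls. A floor of 3 counts equals 0.171 CPM in control 1, so its 0 cannot be set apart from the other controls. The fitted log2 fold change of 2.43 (SE 0.92) had an adjusted p of 0.139, and none of the 15 alternatives that kept Nrxn3 called it.

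Adhesion genes have long transcripts, and over all genes the log2 fold change increased with exonic length. The 37 had a median exonic length of 6384 bases, against 2879 for all genes tested, and 30 of them reached 4000 bases. Over all tested genes of 4000 bases or more, the median log2 fold change was 0.15, with 6.56% called higher and 1.70% called lower. At 6000 bases or more it was 0.19, with 7.43% called higher and 1.61% lower. With offsets for length and GC content the median of the 37 was 0.18, with 23 above 0, 6 called higher and 3 called lower. Itga6, Cdh1, Dsp and Afdn stayed called with offsets, Epcam and Ctnna1 were newly called higher, and Ctnna2, Cadm1 and Nlgn2 were called lower.

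**Figure D3:**
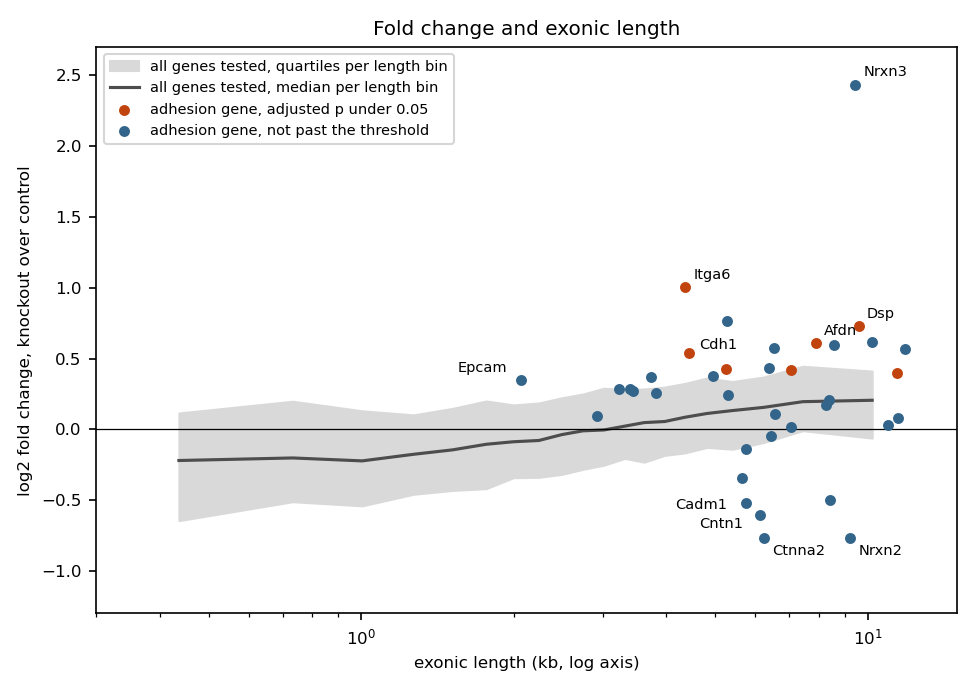
Log2 fold change (knockout over control) against exonic length in kilobases (log axis), with the 37 genes as points and the median and quartiles of all tested genes in 20 length bins as a line and band. The line climbs with length, reaching 0.21 in the longest bin. Itga6, Dsp, Afdn, Cdh1 and Itga3 lie above the band, as do some genes not past the threshold, among them Vcl and Nrxn3.

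Leaving out the 2 shallow libraries left Itga6 as the sole call among the 37 and cut the calls over all genes to 76 higher and 48 lower. The median log2 fold change of the 37 was 0.28 with and without them.

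**Figure D4:**
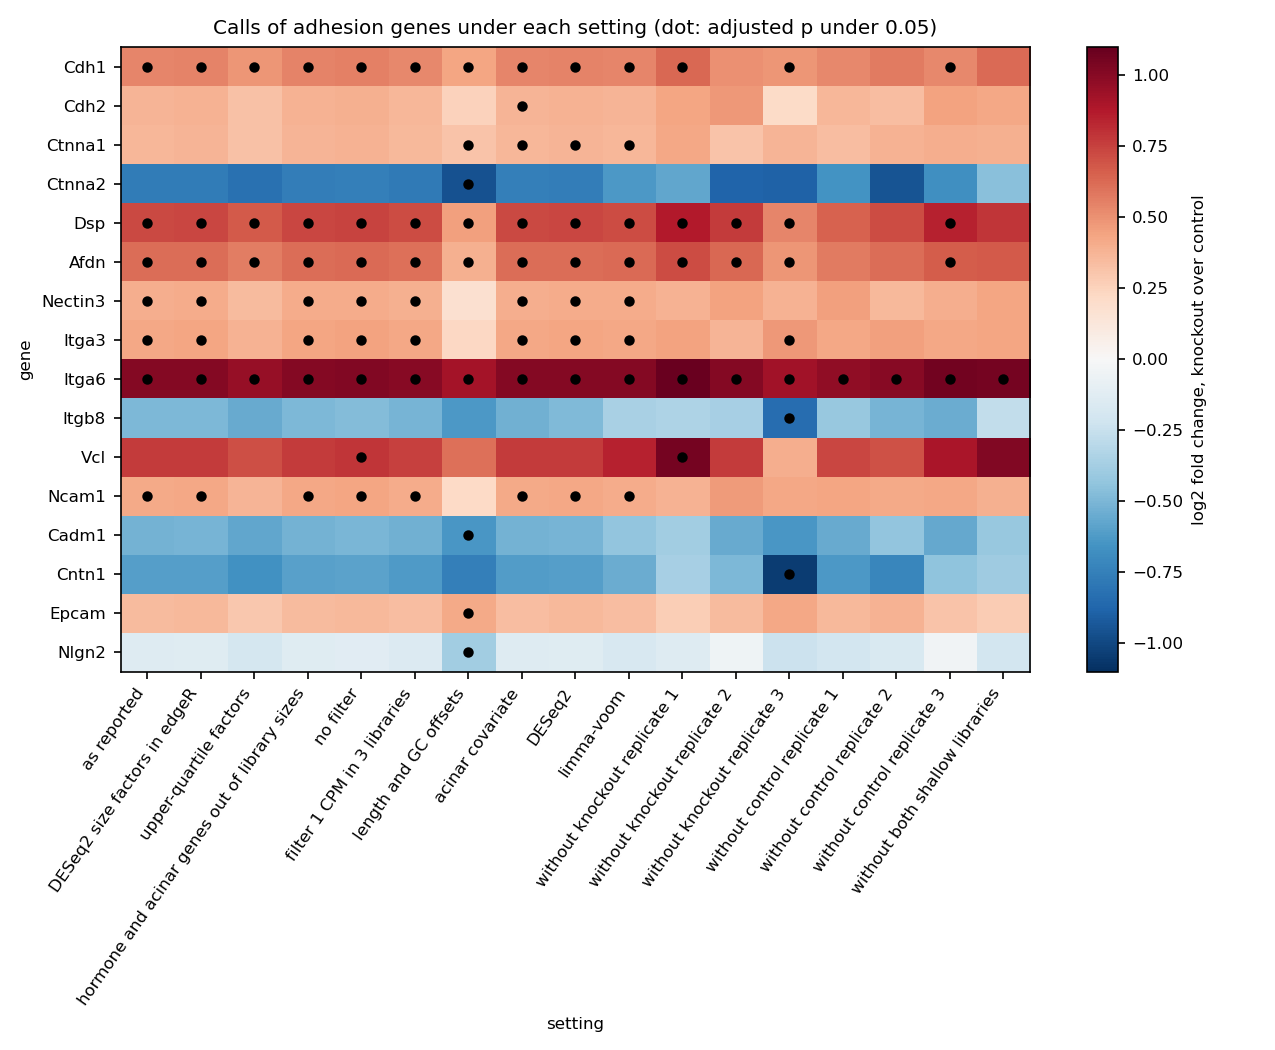
Log2 fold change (colour, knockout over control) of every one of the 37 adhesion genes that was called in at least 1 setting, as reported and under each of the 16 alternatives (columns), with a dot where the adjusted p was under 0.05. Counts of higher calls run from 1, without both shallow libraries, without control 1 or without control 2, to 9, with the acinar covariate.

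Around these 37 genes, 158 further genes of the same systems were read in 7 lists, of which 135 were tested. Of these 10 rose and 2 fell, where 3.72% of all genes tested rose and 3.35% fell. Among all tested genes with an exonic length of 4000 bases or more, 6.56% rose and 1.70% fell. The lists were drawn up with earlier results of these data known. The median log2 fold change of the 135 was 0.14, with 85 above 0. Among 27 tested further cadherins and protocadherins, 5 rose and 1 fell. Cdh4 (R-cadherin) had 17.7, 15.6 and 19.9 CPM in knockouts, against 5.98, 6.20 and 8.21 CPM in controls, or 1.37 (SE 0.19) on the log2 scale, and an adjusted p of 0.00110. Cdh7 had 8.54, 8.12 and 8.35 CPM in knockouts, against 4.18, 2.42 and 3.24 CPM in controls (1.37, SE 0.24; adjusted p = 0.00546). Cdh8 lay the other way, with 7.24, 9.89 and 14.0 CPM in knockouts, against 24.1, 23.2 and 27.9 CPM in controls (-1.25, SE 0.21; adjusted p = 0.00393). All 3, classical type cadherins described mainly in the nervous system, had groups far apart, and each lost its call among the alternatives only without both shallow libraries, with adjusted p of 0.0689 for Cdh4, 0.0590 for Cdh7 and 0.0904 for Cdh8.

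The other 3 cadherin-type calls were weaker. Clstn1 (calsyntenin 1, a cadherin-domain protein of vesicle traffic) averaged 160.9 ± 7.63 CPM in knockouts and 119 ± 9.65 CPM in controls (0.44, adjusted p = 0.0337). Fat1, a giant atypical cadherin, averaged 38.7 ± 6.84 CPM in knockouts and 25.7 ± 3.02 CPM in controls (0.60, adjusted p = 0.0338), and Cdh5, the endothelial cadherin, 44.1 ± 5.04 against 30.8 ± 4.63 CPM (0.51, adjusted p = 0.0481). Clstn1 kept its call without control 3 and lost it without knockout 1 (adjusted p = 0.0997), knockout 2 (0.0733), knockout 3 (0.0701), control 1 (0.126) or control 2 (0.118). Fat1 kept it without knockout 1 and lost it without knockout 2 (0.0898), knockout 3 (0.0779), control 1 (0.0592), control 2 (0.135) or control 3 (0.0795), and with length and GC offsets its log2 fold change was 0.31 (adjusted p = 0.177). Cdh5 lost its call without knockout 1 (0.0786), knockout 2 (0.167), control 1 (0.172) or control 2 (0.159). Over all 16 alternatives, the call was kept in 9 for Clstn1, 9 for Fat1 and 10 for Cdh5. Without both shallow libraries all 3 lost it.

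Of 13 tested further catenin and plaque genes, 2 rose and 1 fell. Ctnnb1 (beta-catenin, which links cadherins to alpha-catenin and also carries Wnt signals) had 367, 446 and 466 CPM in knockouts, against 266, 262.5 and 274 CPM in controls, without overlap (0.67, SE 0.13; adjusted p = 0.00755). Pkp4, a p120-type catenin, averaged 82.0 ± 7.67 CPM in knockouts and 56.1 ± 8.89 CPM in controls (0.55, adjusted p = 0.0278). Ctnnal1, an alpha-catenin-like protein, averaged 20.8 ± 2.42 CPM in knockouts and 31.6 ± 7.11 CPM in controls and fell by 0.61 on the log2 scale (adjusted p = 0.0499). The Ctnnb1 call was lost among the alternatives only without both shallow libraries (0.0893). Pkp4 lost it without knockout 1 (0.0698), knockout 3 (0.0588) or control 2 (0.141), and Ctnnal1 without knockout 1 (0.147), knockout 2 (0.143), control 2 (0.130) or control 3 (0.182). Both also lost it without both shallow libraries. Over all 16 alternatives, the call was kept in 12 for Pkp4 and 10 for Ctnnal1. Ppl (periplakin), the next by p, had a log2 fold change of 0.56 with an adjusted p of 0.104.

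Among 19 tested further focal adhesion genes, Tns2 and Parva rose, 17 had log2 fold changes above 0, and the median was 0.38. Tns2 (tensin 2, which binds integrin tails) averaged 45.4 ± 4.74 CPM in knockouts and 27.2 ± 6.00 CPM in controls (0.74, adjusted p = 0.0171), and Parva (alpha-parvin, a partner of integrin-linked kinase) 111 ± 15.5 against 77.4 ± 2.49 CPM (0.52, adjusted p = 0.0225). Tns2 lost its call without knockout 1 (0.0742), control 1 (0.0814) or control 2 (0.0858), and Parva without knockout 2 (0.0775), control 1 (0.0933) or control 2 (0.0906). Both also lost it without both shallow libraries, and each kept it in 12 of the 16 alternatives. Src and Ptk2 (focal adhesion kinase), kinases of these contacts, had log2 fold changes of 0.62 and 0.45 with adjusted p of 0.0693 and 0.0767.

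None of the 14 further integrins or 17 integrin ligands tested was called. Itga2, a collagen-binding chain, had a log2 fold change of 0.89 (adjusted p = 0.0690) and Itga4, a fibronectin and VCAM-1 receptor, of -0.74 (adjusted p = 0.0625). Spp1 (osteopontin), a ligand of alpha v integrins, averaged 634.8 ± 251 CPM in knockouts and 1343.5 ± 166.5 CPM in controls, without overlap (-1.08, adjusted p = 0.0550), and is also a duct-cell marker.

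Of 22 further immunoglobulin-type genes, Nfasc (neurofascin, an axonal relative of L1) rose, with 168, 158 and 177 CPM in knockouts, against 91.0, 100.1 and 119 CPM in controls, without overlap (0.70, SE 0.12; adjusted p = 0.00569). Its call was lost among the alternatives only without both shallow libraries (0.137). Cadm4, a relative of Cadm1, had a log2 fold change of 0.54 (adjusted p = 0.0678), and Nrcam, of the L1 family, -0.86 (adjusted p = 0.0758). None of the 23 tested partners of neurexins and neuroligins was called, their median was 0.01, and Lrrtm2, a neurexin ligand, had a log2 fold change of -0.54 (adjusted p = 0.144).

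**Figure D5:**
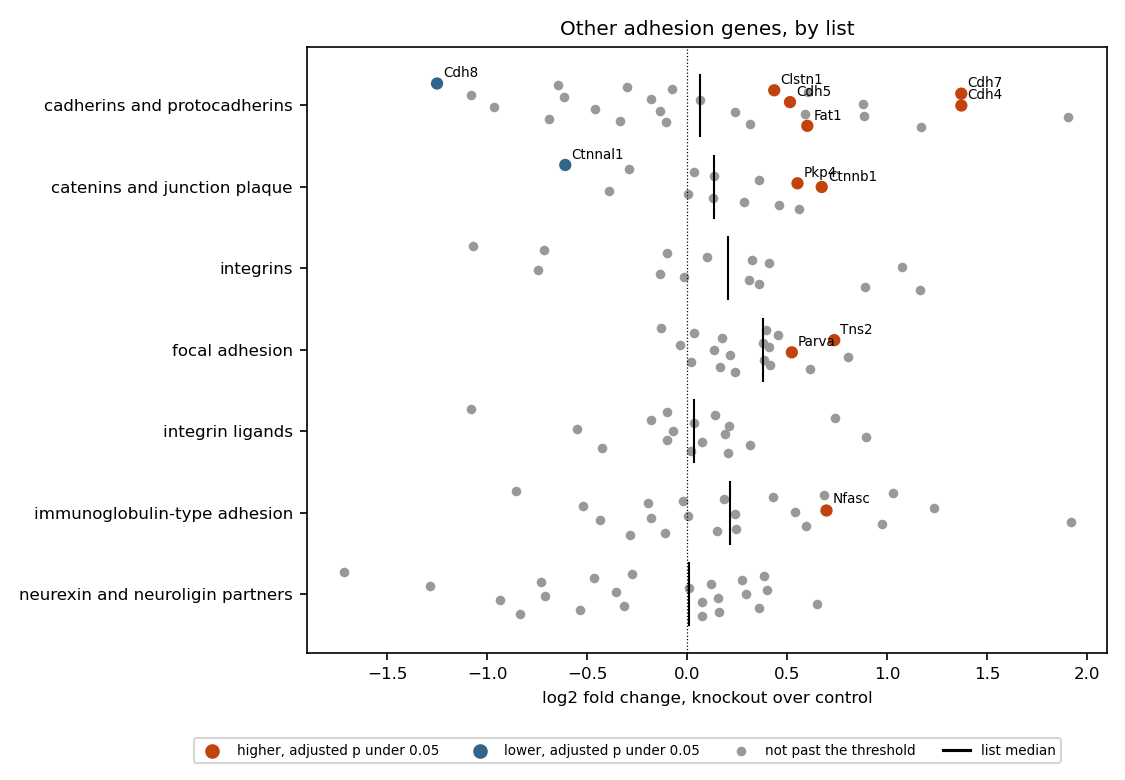
Log2 fold change (knockout over control) of the tested genes of the 7 wider lists, 1 point per gene, with the median of each list as a bar and called genes named. The focal adhesion list has the highest median, 0.38, and the neurexin and neuroligin partners the lowest, 0.01.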

How the data were processed

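Total RNA of whole islets was sequenced in 6 libraries, 3 per group. The submitters' processing notes list STAR 2.7.3a, Trim Galore 0.6.7, featureCounts, FastQC 0.11.9 and the build GRCm39 (mm39). The strand setting is not given in the sources used, so reads of overlapping or antisense genes cannot be told apart. The authors deposited unnormalized whole-number counts. Column names give a library's group but not its animal, so replicate numbers follow the columns. In each library 62.3% to 73.2% of nonzero counts were even, so a count may be less than a fragment, and floors cover counting error only. Replicates differed by more than sampling noise (chi-square per gene of 36.7 or more).

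The test was edgeR 4.0.16 under R 4.3.3 (filterByExpr, TMM factors, robust quasi-likelihood, 18558 genes); CPM was computed from the counts with TMM-scaled library sizes. Alternatives used DESeq2 1.42.0, limma-voom 3.58.1, other scalings, filters and leave-outs. Exonic lengths and GC content came from a GRCm38 annotation by gene ID (97.6% of genes tested), so no coordinates are given beyond the promoter windows of RefSeq's own table; loess offsets (span 0.3) used them. The members and lists were chosen with earlier results of these data known. Named genes are all called members, the most abundant of each family, those without overlap and up to 4 of smallest p per wider list; others were chosen after their values were seen.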

Additional observations from a re-analysis of the deposited data

How the results depend on the processing

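Of the 37 genes, 7 were called higher; the count was 4 with upper-quartile factors, 1 without both shallow libraries and 1 to 5 with any 1 library left out. The count of lower calls, 0 as reported, was 3 with length and GC offsets and 0 to 2 with 1 library left out. The median log2 fold change of 0.28 was 0.24 with upper-quartile factors, 0.18 with length and GC offsets and 0.20 to 0.36 with 1 library left out. For the wider lists, 10 genes were called higher; the count was 20 with no filter, 17 with DESeq2, 16 with the acinar covariate, 16 with limma-voom, 0 without both shallow libraries and 4 to 13 with 1 library left out. Lower calls there, 2 as reported, were 6 with upper-quartile factors, 1 with hormone and acinar genes out of library sizes, 5 with no filter, 5 with a filter of 1 CPM, 5 with length and GC offsets, 4 with the acinar covariate, 6 with DESeq2, 4 with limma-voom, 0 without both shallow libraries and 1 to 3 with 1 library left out. The difference in Itgb4's share of Itgb1 and Itgb4, 1.02 percentage points as reported, turned to -1.40 without knockout 2 and -0.09 without control 3, and spanned -1.40 to 3.19 over the leave-outs. The cause was not tested in any of these cases; leave-outs have fewer samples, and the filters other numbers of genes tested. Over all genes, 691 higher and 621 lower calls became 613 and 829 with upper-quartile factors. Over the 37 genes and 16 alternatives, 539 single results kept their side of the threshold and direction where called, 13 were newly called and 36 lost their call. The filter of 1 CPM left 33 of the 37 to test. No paired analysis was possible because the count columns carry no animal numbers that match the labels. In the 2 shallow libraries a floor of 3 counts equals 0.201 CPM (knockout 1) and 0.171 CPM (control 1), which limits the neurexins, neuroligins and protocadherins near it.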
